A study of Mus musculus and Rattus norvegicus with 18 samples.

Results

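The transcripts described here come from 10 genes that the p53 protein is known to switch on: Mdm2, Cdkn1a, Bbc3, Pmaip1, Fas, Ccng1, Zmat3, Sesn1, Btg2 and Plk2. They were picked by symbol among the 22322 genes listed for mouse cells and the 22050 listed for rat cells. All 10 were found in the mouse cells, and 9 in the rat cells, where no entry carried the symbol Bbc3, so Bbc3 was not analysed there. RNA was sequenced in 18 libraries from mouse primary renal tubular epithelial cells (TECs) and from NRK49F, an established line of rat kidney fibroblasts. Each cell kind had 3 groups of 3 libraries, namely control (Con_TECs and Con_49F), TGF-β1 (Tgfb_TECs and Tgfb_49F) and TGF-β1 with narciclasine (T+N_TECs and T+N_49F). TGF-β1 is a cytokine that drives fibrosis in the kidney, and narciclasine is a plant alkaloid that inhibits protein synthesis at the ribosome. Per the labels, all groups went without serum for 6 h before treatment, TGF-β1 was given at 5 ng/ml for 24 h, and narciclasine at 20 nM from 2 h before TGF-β1 until harvest. For the control groups no treatment time is listed, so their time in culture after starvation is not known here. No library had narciclasine alone, all NRK49F libraries come from a single line, and cell kind and species cannot be told apart. Genotype, strain and age of the mice are not given in the labels, nor whether the TEC libraries came from separate animals.

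p53 is a transcription factor that is kept scarce by the ubiquitin ligase MDM2 and accumulates when DNA damage, ribosomal stress or other insults block that ligase. It binds short paired elements near its target genes, which stop the cell cycle, start apoptosis, repair DNA or, in the case of Mdm2, close a negative feedback loop on p53 itself. In the injured kidney tubule, p53 and its target p21 are known for cell-cycle arrest and for links to fibrosis. Several of the genes also answer to other factors, among them SMAD, FOXO, ATF4 and CREB proteins.

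The mouse promoters were searched first, because the letters show which genes have a match to all or part of the p53 consensus close to a start site. RefSeq (GRCm38.p6) gave 12 promoter windows for 8 of the 10 genes, each running from 250 bases before to 50 bases after a transcript start. The p53 consensus decamer, of which a full element holds a pair, was matched exactly on both strands. It occurred in 4 windows, 1 each of Mdm2, Cdkn1a, Ccng1 and Sesn1, against 8.36% of all 32851 windows in the table. A pair of adjoining decamers with at most 1 mismatch in 20 bases occurred at Cdkn1a, 51 bases before an upstream start, and at Ccng1, 195 bases before the start, against 0.0883% of all windows. The motif TGACGTCA, the cAMP response element, which is its own reverse complement and overlaps no p53 match, was added after the sequences had been seen. It occurred in the windows of Btg2 and Plk2, against 1.79% of all windows. The stretches below are shown to let those letters be read, 5′ to 3′ on the strand of the gene, with the matched motif in capitals and 20 bases on either side. Cdkn1a shows a decamer and then the adjoining pair. That decamer and the first of the pair match exactly and lie 12 bases apart. Exact pairs with a spacer of at most 13 bases occurred in this 1 target gene window and in 0.0731% of all windows.
Mdm2, chr10:117710915-117710964, minus strand: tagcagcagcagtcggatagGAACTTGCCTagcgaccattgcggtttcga
Cdkn1a, chr17:29090886-29090967, plus strand: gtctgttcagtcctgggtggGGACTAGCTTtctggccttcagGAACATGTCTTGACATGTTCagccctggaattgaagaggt
Ccng1, chr11:40755442-40755501, minus strand: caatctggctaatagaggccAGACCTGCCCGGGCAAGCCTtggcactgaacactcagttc
Sesn1, chr10:41887246-41887295, plus strand: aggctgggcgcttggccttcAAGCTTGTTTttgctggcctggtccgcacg
Btg2, chr1:134079294-134079341, minus strand: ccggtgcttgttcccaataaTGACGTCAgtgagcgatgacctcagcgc
Plk2, chr13:110394962-110395009, plus strand: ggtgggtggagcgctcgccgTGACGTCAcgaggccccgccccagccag
These are matches of letters in the mouse genome. A window without a match says nothing of elements outside it, and binding was not measured.

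The libraries held 16652016 to 25192716 counts in TECs and 14695732 to 18463855 in NRK49F. Mouse values were tested for 13244 genes and rat values for 11444, and every target gene found passed the filter on low counts. In TECs 9 of 10 tubular marker genes were at 1 CPM (the read count scaled to the size of the library) or more in each group. In NRK49F 6 of the 8 fibroblast markers found were at that level and 8 of 10 tubular markers were below it. The p-values measure the spread between libraries that the series calls biological replicates. In NRK49F, replicate 2 stood apart in each group. Pairs of libraries that include it had a variance of 7.86 to 20.8 times that of counting error. For the other pairs it was 2.39 to 3.40 times, and for pairs in TECs 1.86 to 3.83 times. Beside a value printed for a target gene or Mdm4, the one without replicate 2 of all groups is therefore given where it differs in call or by more than 1.5 times.

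Set per length of exon, the target genes of control TECs spanned a wide range of levels. Plk2 stood highest at 155 ± 0.954 RPKM (CPM per kilobase of exon, mean ± SD, n = 3), followed by Ccng1 at 144 ± 2.87 and Pmaip1 at 124 ± 3.45. Cdkn1a reached 66.5 ± 1.23 RPKM. Btg2 at 30.6 ± 0.348 and Mdm2 at 29.6 ± 0.457 RPKM were closest to each other. Zmat3 lay at 7.27 ± 0.136, Bbc3 at 3.56 ± 0.285, Sesn1 at 1.88 ± 0.154 and Fas at 0.523 ± 0.143 RPKM. Each neighbour in this order lay further from the next than the sum of their SDs, the close pair of Btg2 and Mdm2 included. No rat gene lengths were used here, so levels of different genes are not compared in NRK49F.

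In TECs, TGF-β1 raised most of the target genes, and narciclasine given with it lowered most of these again, while Pmaip1 and Plk2 took another course. Against control, 7 of 10 genes rose under TGF-β1 and 1 fell, with a median log2 change of 0.32. Over all tested genes 69% were called, 34.1% as higher and 34.9% as lower, and the median change was −0.005. The libraries of the compared groups did not overlap for 8 of 10 target genes and for 71.2% of all genes. Against TGF-β1 alone, narciclasine with TGF-β1 lowered 6 of 10 and raised 2, with a median of −0.24, where 52.3% of all genes were called, 25.5% as lower and 26.8% as higher, with a median of 0.002. Groups did not overlap for 9 of 10 target genes and 57.1% of all genes. Against control, cells given both agents had 7 genes higher and 2 lower, with a median of 0.30, where 63% of all genes were called, 32.4% as higher and 30.6% as lower. There 9 of 10 target genes and 66.3% of all genes had groups without overlap. These comparisons share libraries with each other, so their values are set side by side only. Scaling by total counts in place of TMM factors moved the median change of all genes under TGF-β1 to −0.13 in TECs and −0.24 in NRK49F, and cut the share of calls that were rises from 49.4% to 34.8% and from 47.0% to 35.0%. For both agents against control that share went from 51.5% to 36.9% in TECs and from 49.97% to 40.04% in NRK49F. For narciclasine over TGF-β1 it moved the other way, from 51.3% to 57.6% in TECs and from 50.3% to 57.4% in NRK49F.

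Other measures moved with the groups in TECs. The summed level of 9 fibroblast markers was 93.1 to 95.3 CPM in control, 328 to 351 under TGF-β1 and 121 to 134 with both agents, with 3 markers under 1 CPM in each group and none at 0 in all libraries of a group. The sum of 10 tubular markers went from 5752 to 5822 CPM in control to 6536 to 6735 and 7328 to 7455 CPM. That sum does not stand for each marker: of the 9 tested, 4 rose and 5 fell under TGF-β1, with a median log2 change of −0.44. With narciclasine over TGF-β1, 5 of them rose and 2 fell. The sum of 8 leukocyte markers was 36.4 to 39.7, 48.4 to 50.2 and 26.7 to 28.04 CPM, and that of 5 endothelial markers 101 to 102, 113 to 119 and 108 to 113 CPM. The mitochondrial share of counts was 4.32% to 4.60%, 5.36% to 5.75% and 3.94% to 4.02%. The part of these shifts in the target genes' changes was not tested. In RNA from whole dishes, fewer cells with a transcript and less of it per cell cannot be told apart.

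**Figure D1:**
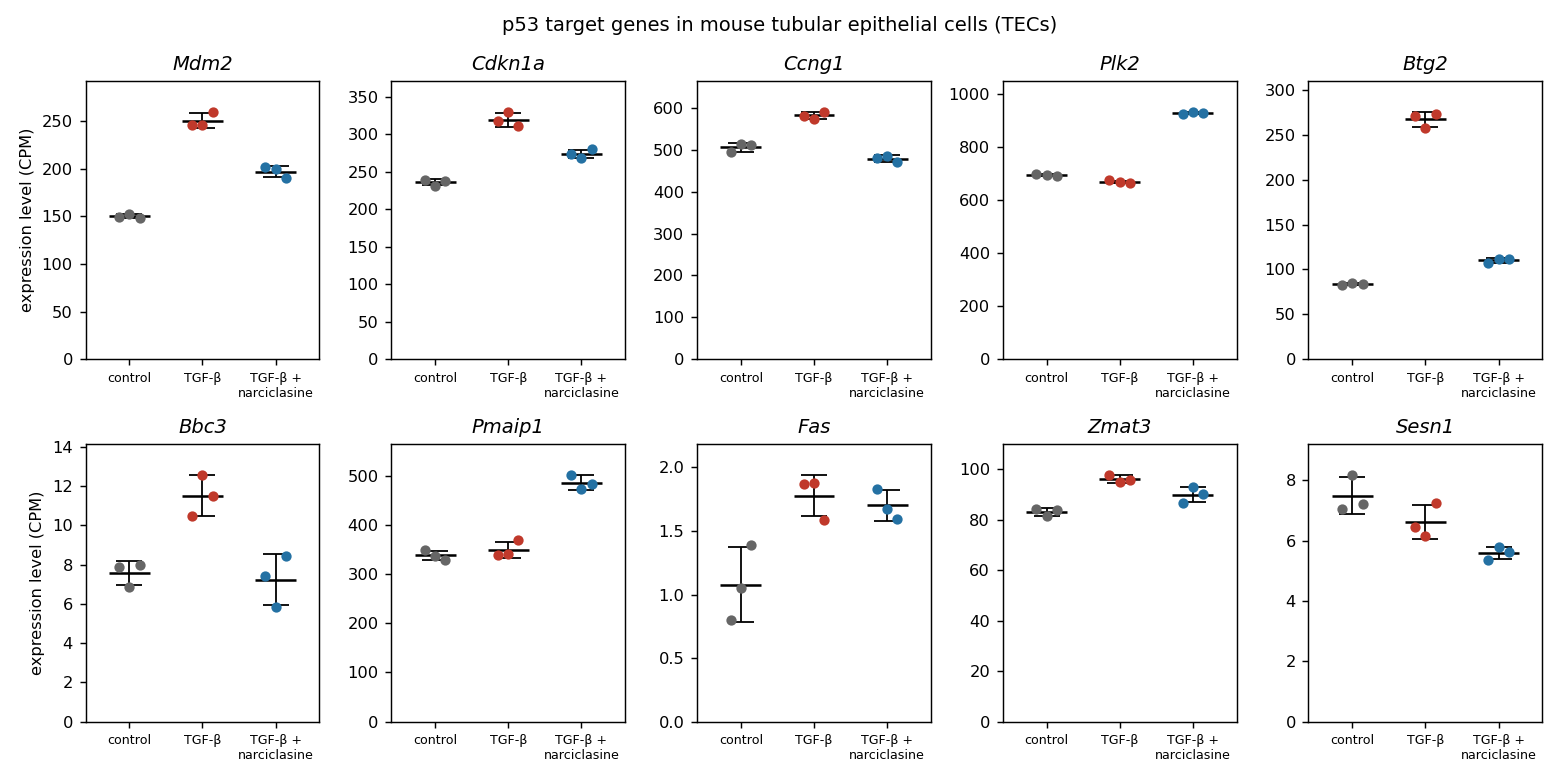
Levels of the 10 p53 target genes in TECs, in CPM on axes that start at 0, for untreated cells and cells given TGF-β without or with narciclasine. Points are the 3 libraries of a group, the long bar is their mean and the error bar 1 SD; Btg2, Mdm2, Cdkn1a, Ccng1 and Bbc3 peak under TGF-β, while Pmaip1 and Plk2 are highest with both agents.

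Mdm2 (GRCm38 chromosome 10, 117688875 to 117710758, minus strand) encodes the ubiquitin ligase that marks p53 for destruction. In TECs it stood at 149, 153 and 149 CPM in the control libraries, 247, 246 and 260.0 CPM under TGF-β1, and 202, 199.5 and 190.3 CPM with both agents. The groups did not overlap, and cells given both agents lay between the others. The rise under TGF-β1 was 1.67-fold (log2 0.74, SE 0.0305, edgeR adjusted p = 1.88e-23), the step down with narciclasine was −0.35 (SE 0.0301, adjusted p = 9.87e-13), and 0.39 of log2 change remained against control.

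Cell-cycle genes formed the next group. Cdkn1a (chromosome 17, 29090976 to 29100727, plus strand), the gene of the cyclin-dependent kinase inhibitor p21, had 239.7, 231 and 238 CPM in control TECs, 317, 329.9 and 311 CPM under TGF-β1, and 273, 268 and 279.7 CPM with both agents. Its groups kept apart in the same order as those of Mdm2. Cdkn1a rose 1.35-fold under TGF-β1 (log2 0.44, SE 0.0277, adjusted p = 2.70e-17) and fell by 0.22 with narciclasine (SE 0.0276, adjusted p = 8.50e-09). Against control it was higher by 0.21 with both agents, or by 0.11 when scaled by total counts. Its exons overlap those of AC167363.2 in the annotation, and the counting is not stated to use strand, so reads of that transcript cannot be told apart from Cdkn1a reads.

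Btg2 (chromosome 1, 134075170 to 134079120, minus strand), an antiproliferative partner of the mRNA deadenylase complex, changed most of the 10 genes in TECs. Control libraries held 83.0, 84.9 and 84.1 CPM, TGF-β1 libraries 271, 258 and 274 CPM, and libraries with both agents 107, 111 and 112 CPM. All 3 groups were apart from each other. The 3.18-fold rise (log2 1.67, SE 0.0325, adjusted p = 1.02e-34) was followed by a fall of −1.28 with narciclasine (SE 0.0318, adjusted p = 4.47e-30), which left Btg2 higher than control by 0.39.

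Ccng1 (chromosome 11, 40748552 to 40755311, minus strand) encodes cyclin G1, a partner of the phosphatase PP2A that acts on MDM2. It had 495, 513 and 511 CPM in control, 582, 575 and 591 CPM under TGF-β1 and 481, 487 and 470.2 CPM with both agents. The libraries with both agents lay below all control libraries. Ccng1 rose by 0.20 under TGF-β1 (SE 0.0237, adjusted p = 8.88e-10), fell by 0.28 with narciclasine (adjusted p = 5.30e-13), and was 0.08 below control with both (adjusted p = 0.00396). Scaling by total counts made the first value 0.07 and the last −0.18.

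Plk2 (chromosome 13, 110395046 to 110400844, plus strand), a stress-responsive polo-like kinase, behaved otherwise. Its levels were 699, 692 and 691 CPM in control, 673, 667 and 664 CPM under TGF-β1 and 923, 932 and 926 CPM with both agents. TGF-β1 libraries lay just below control and the libraries with both agents far above. The fall under TGF-β1 was −0.05 (SE 0.0216, adjusted p = 0.0236), a call that ended without control replicate 1 (adjusted p = 0.0759) and without replicate 2 of all groups (0.0552), and that was −0.19 with total counts. The rise with narciclasine was 0.47 (SE 0.0215, adjusted p = 3.51e-21).

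Among the apoptosis genes of TECs, Bbc3 (chromosome 7, 16308393 to 16318205, plus strand), which encodes the BH3-only protein PUMA, followed the course of Mdm2. It stood at 7.85, 6.88 and 7.98 CPM in control, 10.5, 12.6 and 11.5 CPM under TGF-β1, and 7.42, 5.83 and 8.43 CPM with both agents. TGF-β1 libraries lay above all others, and control and both agents overlapped. Bbc3 rose by 0.61 (SE 0.115, adjusted p = 1.33e-05) and fell by 0.66 with narciclasine (SE 0.117, adjusted p = 7.71e-06). With both agents it differed from control by −0.06 (adjusted p = 0.703), by 0.06 without T+N replicate 2, and by −0.02 without replicate 2 of all groups.

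Pmaip1, which encodes the BH3-only protein NOXA, did not follow Bbc3. Control TECs had 348, 337 and 329 CPM, TGF-β1 libraries 339, 341 and 368 CPM, and libraries with both agents 502, 474 and 482 CPM. Control and TGF-β1 overlapped, and the libraries with both agents lay above them. The difference under TGF-β1 was 0.05 (SE 0.0299, adjusted p = 0.137), and −0.08 with total counts (adjusted p = 0.0191). Narciclasine with TGF-β1 raised Pmaip1 by 0.47 over TGF-β1 (SE 0.0296, adjusted p = 6.60e-15) and both agents by 0.52 over control (adjusted p = 1.54e-16).

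Fas (chromosome 19, 34290666 to 34327772, plus strand), the death receptor, was barely expressed in TECs, with 14 to 41 counts per library. Its levels were 0.797, 1.05 and 1.39 CPM in control, 1.87, 1.87 and 1.59 CPM under TGF-β1, and 1.83, 1.67 and 1.60 CPM with both agents. Control lay below the other groups, which overlapped. Fas rose by 0.70 under TGF-β1 (SE 0.262, adjusted p = 0.0174), a call that ended without control replicate 1 (adjusted p = 0.0859) or 2 (0.0554), TGF-β1 replicate 1 (0.0582), or replicate 2 of all groups (0.0966). The change of 0.65 with both agents against control (adjusted p = 0.0318) ended under 7 alternatives, among them DESeq2 (adjusted p = 0.0723) and total counts (0.0675), and without control replicate 1 (0.133) or 2 (0.0863), T+N replicate 1 (0.108) or 2 (0.0595), or replicate 2 of all groups (0.120).

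Zmat3 and Sesn1 are described apart from the cell-cycle and apoptosis genes. Zmat3 (chromosome 3, 32334792 to 32366014, minus strand), an RNA-binding protein that acts in splicing and tumour suppression, had 84.2, 81.4 and 83.9 CPM in control TECs, 97.9, 95.1 and 95.8 under TGF-β1 and 86.7, 93.0 and 90.4 with both agents. Again the group with both agents lay between the others without overlap. Zmat3 rose by 0.21 under TGF-β1 (SE 0.0377, adjusted p = 4.29e-06), or 0.08 with total counts. Its fall of −0.10 with narciclasine (adjusted p = 0.0265) ended with total counts (adjusted p = 0.127) and without T+N replicate 1 (0.106) or TGF-β1 replicate 1 (0.0668). Its 0.12 over control with both agents (adjusted p = 0.00845) ended with total counts (0.743), without control replicate 2 (0.0536), T+N replicate 2 (0.110) or replicate 2 of all groups (0.287, at a value of 0.06).

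Sesn1 (chromosome 10, 41809935 to 41908424, plus strand) encodes sestrin 1, a stress protein that restrains mTORC1. It stood at 7.06, 8.19 and 7.22 CPM in control TECs, 6.44, 6.17 and 7.26 CPM under TGF-β1 and 5.36, 5.78 and 5.62 CPM with both agents. Control and TGF-β1 overlapped, and both agents lay lowest. Sesn1 fell by 0.43 with both agents against control (SE 0.121, adjusted p = 0.00207). Its difference under TGF-β1 was −0.18 (adjusted p = 0.172). That value was −0.31 with total counts (adjusted p = 0.0181), −0.10 without control replicate 2 (0.504) and −0.064 without replicate 2 of all groups (0.717). With narciclasine against TGF-β1 the difference was −0.25 (adjusted p = 0.0869).

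In NRK49F, the feedback and cell-cycle genes Mdm2, Cdkn1a, Ccng1 and Plk2 fell under TGF-β1 and rose when narciclasine was added, while Btg2 and Pmaip1 rose strongly under TGF-β1. Against control, 3 of 9 target genes rose under TGF-β1 and 5 fell, with a median log2 change of −0.23. Over all tested genes 71.8% were called, 33.7% as higher and 38% as lower, and the median was −0.05. Groups did not overlap for 8 of 9 target genes and 74.3% of all genes. Against TGF-β1, narciclasine raised 5 and lowered 3, with a median of 0.34, where 62.7% of all genes were called, 31.6% as higher and 31.1% as lower. Here 8 of 9 target genes and 70% of all genes had groups without overlap. With both agents 6 were higher than control and 3 lower, with a median of 0.45, where 66.8% of all genes were called, 33.4% in each direction. No groups overlapped for any of the 9, nor for 70.6% of all genes.

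The sum of 8 fibroblast markers was 10087 to 11733 CPM in control NRK49F, 35904 to 37671 under TGF-β1 and 17342 to 17863 with both agents, with 2 markers under 1 CPM in each group and 1 of them at 0 in all libraries with both agents. Of the 6 fibroblast markers tested, 4 rose and 2 fell under TGF-β1. The sum of 10 tubular markers was 1219 to 1309, 679 to 787 and 575 to 628 CPM. Leukocyte markers summed to 60.4 to 105, 63.0 to 72.3 and 42.8 to 53.6 CPM, with 6 of 8 under 1 CPM, and the 4 endothelial markers found to at most 1.90 CPM. The mitochondrial share ranged from 2.03% to 3.77% over the 9 libraries. The part of these shifts in the changes below was not tested.

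**Figure D2:**
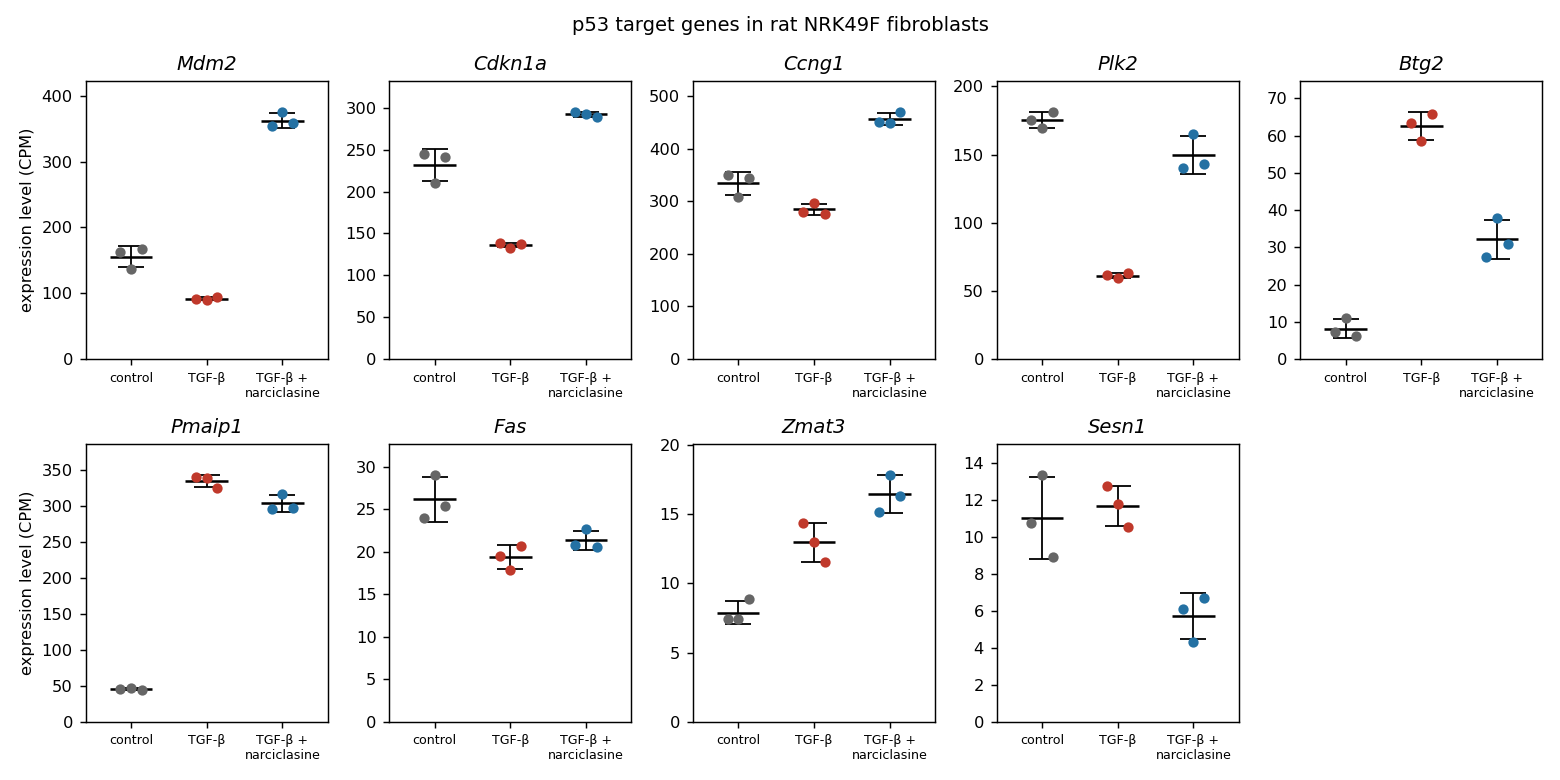
Levels of the 9 p53 target genes found in NRK49F, in CPM on axes that start at 0, drawn as for TECs. Mdm2, Cdkn1a, Ccng1 and Plk2 are lowest under TGF-β, while Pmaip1 goes from 45.5 CPM in control to 335 CPM under TGF-β and stays high with both agents.

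Mdm2 stood at 163, 137 and 167 CPM in control NRK49F, 90.9, 90.0 and 94.4 CPM under TGF-β1, and 354, 375 and 358 CPM with both agents. The groups were apart, with TGF-β1 lowest and both agents above control. Mdm2 fell by 0.76 under TGF-β1 (SE 0.0697, adjusted p = 1.25e-07). With narciclasine it rose 3.95-fold over TGF-β1 (log2 1.98, SE 0.0704, adjusted p = 2.30e-11), the largest narciclasine change of the 9 genes in this cell kind, and 2.33-fold over control (log2 1.22, adjusted p = 5.95e-10).

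Cdkn1a took the same course at a smaller size. It had 245, 210.1 and 241 CPM in control, 138, 133 and 137 CPM under TGF-β1 and 295, 292 and 289 CPM with both agents. No groups overlapped. The fall under TGF-β1 was −0.77 (SE 0.0601, adjusted p = 2.12e-08) and the rise with narciclasine 1.10 (SE 0.0602, adjusted p = 1.49e-09). Both agents left it 0.33 above control (adjusted p = 0.000145), or 0.22 with total counts.

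Ccng1 had 349.5, 309 and 343 CPM in control NRK49F, 280.3, 296 and 276 CPM under TGF-β1, and 451, 449 and 469.6 CPM with both agents. Its order of groups matched that of Mdm2 and Cdkn1a. It fell by 0.23 under TGF-β1 (SE 0.0572, adjusted p = 0.00200), or by 0.42 with total counts, and rose by 0.68 with narciclasine (SE 0.0573, adjusted p = 9.88e-08). Plk2 went from 175, 169.8 and 181 CPM in control to 61.4, 59.2 and 63.2 CPM under TGF-β1 and 140.1, 165 and 143 CPM with both agents. Unlike those of Mdm2, Cdkn1a and Ccng1, its libraries with both agents lay below control. Plk2 fell by 1.52 under TGF-β1 (SE 0.0680, adjusted p = 4.24e-11), rose by 1.29 with narciclasine (SE 0.0680, adjusted p = 1.11e-09) and stayed 0.23 below control (adjusted p = 0.00570), or 0.34 below with total counts.

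Btg2 was the cell-cycle gene that went the other way in NRK49F. Control libraries had 7.32, 10.9 and 6.11 CPM, TGF-β1 libraries 63.3, 58.5 and 65.9 CPM and libraries with both agents 27.4, 37.9 and 31.0 CPM. The groups were apart, with both agents in the middle, as in TECs. Btg2 rose 7.72-fold under TGF-β1 (log2 2.95, SE 0.187, adjusted p = 1.98e-07) and fell by 0.96 with narciclasine (SE 0.161, adjusted p = 0.000464), to a level 3.96-fold above control (log2 1.99, adjusted p = 6.00e-06).

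Pmaip1 rose from 45.9, 46.6 and 44.1 CPM in control NRK49F to 340.5, 339 and 325 CPM under TGF-β1, and stood at 296, 316 and 297 CPM with both agents. Control lay far below the other groups, which were near each other without overlap. The rise was 7.35-fold (log2 2.88, SE 0.0560, adjusted p = 6.92e-15). The fall with narciclasine was −0.14 (SE 0.0505, adjusted p = 0.0236), a call that ended with no filter on low counts (adjusted p = 0.0629), with total counts (0.249, at −0.07), and without T+N replicate 1 (0.0959) or 3 (0.0964) or TGF-β1 replicate 1 (0.0754) or 2 (0.0643). Both agents left it 6.66-fold above control (adjusted p = 1.48e-14).

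Fas was better covered in NRK49F than in TECs, at 248 to 459 counts per library. Its levels were 24.0, 29.0 and 25.4 CPM in control, 19.5, 17.9 and 20.7 CPM under TGF-β1 and 20.8, 22.6 and 20.5 CPM with both agents. Control lay above the other groups, which overlapped. Fas fell by 0.43 under TGF-β1 (SE 0.0978, adjusted p = 0.00106) and differed by 0.14 with narciclasine (adjusted p = 0.234), or by 0.047 without replicate 2 of all groups (0.706) and 0.086 without TGF-β1 replicate 2 (0.517). With both agents it was 0.29 below control (adjusted p = 0.0143), a call that ended without control replicate 2 (adjusted p = 0.0532) or T+N replicate 1 (0.0519) or 3 (0.0532).

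Zmat3 went up step by step in NRK49F, with 7.44, 7.40 and 8.86 CPM in control, 14.4, 12.97 and 11.6 CPM under TGF-β1 and 15.2, 17.9 and 16.4 CPM with both agents. The groups were apart in that order. It rose by 0.72 under TGF-β1 (SE 0.127, adjusted p = 0.000133) and by 1.06 with both agents over control (adjusted p = 2.31e-06). The step of 0.34 with narciclasine (adjusted p = 0.0213) ended without T+N replicate 2 (adjusted p = 0.0883), TGF-β1 replicate 3 (0.105) or replicate 2 of all groups (0.0630). Sesn1 had 10.7, 13.4 and 8.92 CPM in control, 12.7, 11.7 and 10.5 CPM under TGF-β1 and 6.10, 4.29 and 6.69 CPM with both agents. Control and TGF-β1 overlapped, and both agents lay below them. Sesn1 fell by 1.04 with narciclasine (SE 0.182, adjusted p = 0.000150) and by 0.96 against control, or by 0.62 without replicate 2 of all groups. Its difference under TGF-β1 was 0.09 (adjusted p = 0.672), −0.10 with total counts, −0.05 without control replicate 3 and 0.24 without replicate 2 of all groups (adjusted p = 0.167).

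Whether an agent acted differently on TECs and NRK49F was tested as an interaction, in 1 fit of the 18 libraries over 12161 genes matched by symbol. That fit gives each gene a single spread for both cell kinds, although NRK49F libraries varied more than TEC libraries. Its SE can be too small for a gene that varies more in 1 cell kind. For the TGF-β1 effect, 8 of 9 target genes differed, 5 with a higher and 3 with a lower log2 change in TECs, against 61.5% of all genes, 31.3% higher and 30.1% lower. For the narciclasine effect, 7 of 9 differed, 2 higher and 5 lower in TECs, against 46.9% of all genes, 27% higher and 19.9% lower. Mdm2, Cdkn1a and Ccng1 rose under TGF-β1 in TECs and fell in NRK49F, and did the reverse with narciclasine. The difference in the narciclasine effect, TEC minus NRK49F, was −2.27 for Mdm2 (SE 0.0755, adjusted p = 3.89e-19), −1.26 for Cdkn1a (SE 0.0640, adjusted p = 3.11e-15) and −0.90 for Ccng1 (SE 0.0601, adjusted p = 1.01e-12). Plk2 rose with narciclasine in both cell kinds, by 0.76 less in TECs (adjusted p = 8.29e-10). Pmaip1 stood out in the TGF-β1 effect, with a difference of −2.86 (SE 0.0664, adjusted p = 1.52e-23).

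Btg2 and Plk2 were called in the same direction in both cell kinds under each agent. The Plk2 fall under TGF-β1 in TECs was −0.05, a call that ended without control replicate 1 or replicate 2 of all groups. The TGF-β1 rise of Btg2 was smaller in TECs by 1.31 (SE 0.181, adjusted p = 8.68e-06). Its narciclasine change differed by −0.26 (SE 0.153, adjusted p = 0.187), a difference that became a call when just the groups compared were fitted (−0.36, adjusted p = 0.00841) and without control NRK49F replicate 2 (adjusted p = 0.0305). It shrank to −0.11 without T+N NRK49F replicate 2 (adjusted p = 0.547) and to −0.10 without replicate 2 of all groups (0.323). For Sesn1 the TGF-β1 difference of −0.30 (adjusted p = 0.215) became −0.48 without control NRK49F replicate 2 (adjusted p = 0.0285) and −0.17 without control NRK49F replicate 3 (0.499).

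**Figure D3:**
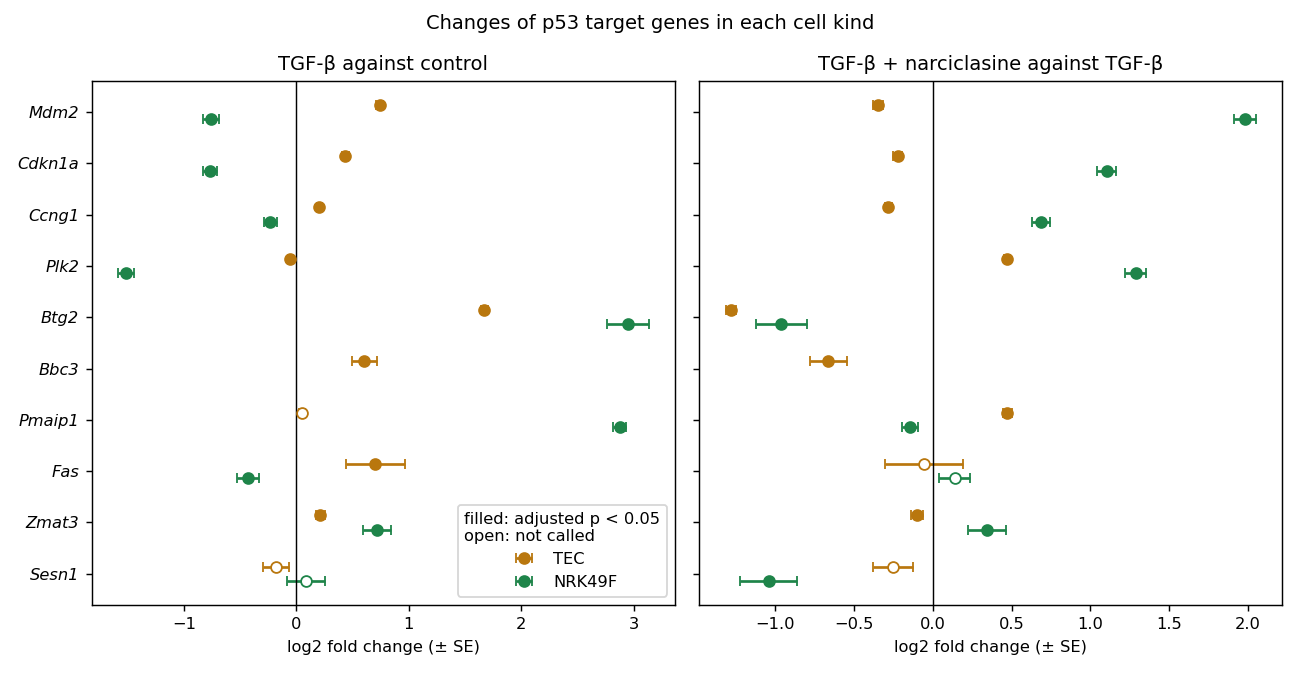
Log2 fold changes of the target genes with their SE, in TECs (orange) and NRK49F (green), under TGF-β against control (left) and for TGF-β with narciclasine against TGF-β (right). Filled points passed an adjusted p under 0.05. Mdm2, Cdkn1a, Ccng1 and Fas lie on opposite sides of 0 in the 2 cell kinds in both panels, Fas with open points on the right. Btg2 and Plk2 lie on the same side in both panels.

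Mdm4, which encodes the MDM2 partner that blocks p53, went from 80.9 to 99.4 and 89.0 CPM in TECs, with a rise of 0.30 under TGF-β1 (0.17 with total counts) and a fall of −0.16 with narciclasine. Against control it was 0.14 higher with both agents, a call that ended with total counts (adjusted p = 0.363). In NRK49F it went from 15.4 to 17.0 and 11.96 CPM. There it differed by 0.14 under TGF-β1 (adjusted p = 0.380), by −0.04 with total counts, by 0.30 without control replicate 2 (adjusted p = 0.0460) and by 0.38 without replicate 2 of all groups (0.00524). Without control replicate 1 it was 0.035 and without TGF-β1 replicate 1 0.023. It fell by 0.51 with narciclasine (adjusted p = 0.00699) and was 0.36 below control with both agents (adjusted p = 0.0380), a call that ended with DESeq2 (adjusted p = 0.0522) and without control replicate 2 (0.175, at −0.21) or T+N replicate 1 (0.116) or 3 (0.124).

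Protein was not measured. Among 19 genes whose products regulate p53, Mdm4 included, 8 rose and 6 fell under TGF-β1 in TECs, with a median of 0.02, and 10 rose and 5 fell with narciclasine, with a median of 0.10. Of the 17 tested in NRK49F, 4 rose and 7 fell under TGF-β1, with a median of −0.16, and 12 rose and 2 fell with narciclasine, with a median of 0.36. Over all genes of TECs, 34.1% rose and 34.9% fell under TGF-β1, and 26.8% rose and 25.5% fell with narciclasine. For NRK49F these shares were 33.7% and 38%, and 31.6% and 31.1%. In TECs the checkpoint kinase Chek1 fell by 2.44 under TGF-β1 and rose by 1.39 with narciclasine, the p53 kinase Hipk2 rose by 1.21 under TGF-β1 and the damage kinase Atm fell by 0.50. Cdkn2a, whose ARF product binds MDM2, rose by 0.92 under TGF-β1 and fell by 1.13 with narciclasine in TECs, as Mdm2 and Cdkn1a did, and had 1 count over the 9 NRK49F libraries. Its level in TECs was low, at 3.10 CPM in control, 5.93 under TGF-β1 and 2.67 with both agents. Counts per gene do not separate the ARF transcript from others of Cdkn2a. In NRK49F the p53 ubiquitin ligase Cop1 rose by 1.11 and the damage kinase Atr by 0.80 under TGF-β1, while the acetyltransferases Crebbp and Ep300 fell by 0.54 and 0.53. With narciclasine the p53 deubiquitinase Usp10 rose in both cell kinds, by 0.35 in TECs and 0.75 in NRK49F. The acetyltransferase Kat5 rose by 0.73 in NRK49F, and so did Rpl11, a ribosomal protein that binds MDM2, by 0.99, with the limit that ribosomal protein genes have many near-identical copies.

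A wider list held 32 other p53 target genes. In TECs 13 of 31 tested rose and 8 fell under TGF-β1, with a median of 0.03, and 3 rose and 15 fell with narciclasine, with a median of −0.12. In NRK49F 8 of 25 rose and 11 fell under TGF-β1, with a median of −0.18, and 7 rose and 7 fell with narciclasine, with a median of −0.10. Over all genes, 69% were called under TGF-β1 and 52.3% with narciclasine in TECs, and 71.8% and 62.7% in NRK49F. Eda2r, a TNF receptor family member, took the directions of Mdm2 in both cell kinds, up by 0.53 and down by 0.57 in TECs, and down by 1.03 and up by 1.32 in NRK49F. The stress genes Gadd45a and Ddit4 rose by 1.33 and 1.35 under TGF-β1 in TECs and by 1.03 and 0.91 in NRK49F. With narciclasine they fell by 1.43 and 1.89 in NRK49F, while in TECs Ddit4 fell by 0.54 and Gadd45a differed by −0.07 (adjusted p = 0.220), with overlapping groups. Gdf15, a secreted stress cytokine, fell in TECs by 1.10 under TGF-β1, where Mdm2 and Cdkn1a rose. It fell by another 0.90 with narciclasine, in the direction of Mdm2 and Cdkn1a. The adenylate kinase Ak1 rose by 2.17 under TGF-β1 in TECs and Dcxr, a carbonyl reductase, fell by 0.93 with narciclasine. In NRK49F the apoptosome gene Apaf1 rose by 1.63 under TGF-β1, while Fdxr, a mitochondrial reductase, fell by 1.57 and the excision repair nuclease Ercc5 by 1.12. Rrm2b, the p53-inducible ribonucleotide reductase subunit, was 0.90 below control with both agents in NRK49F.

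**Figure D4:**
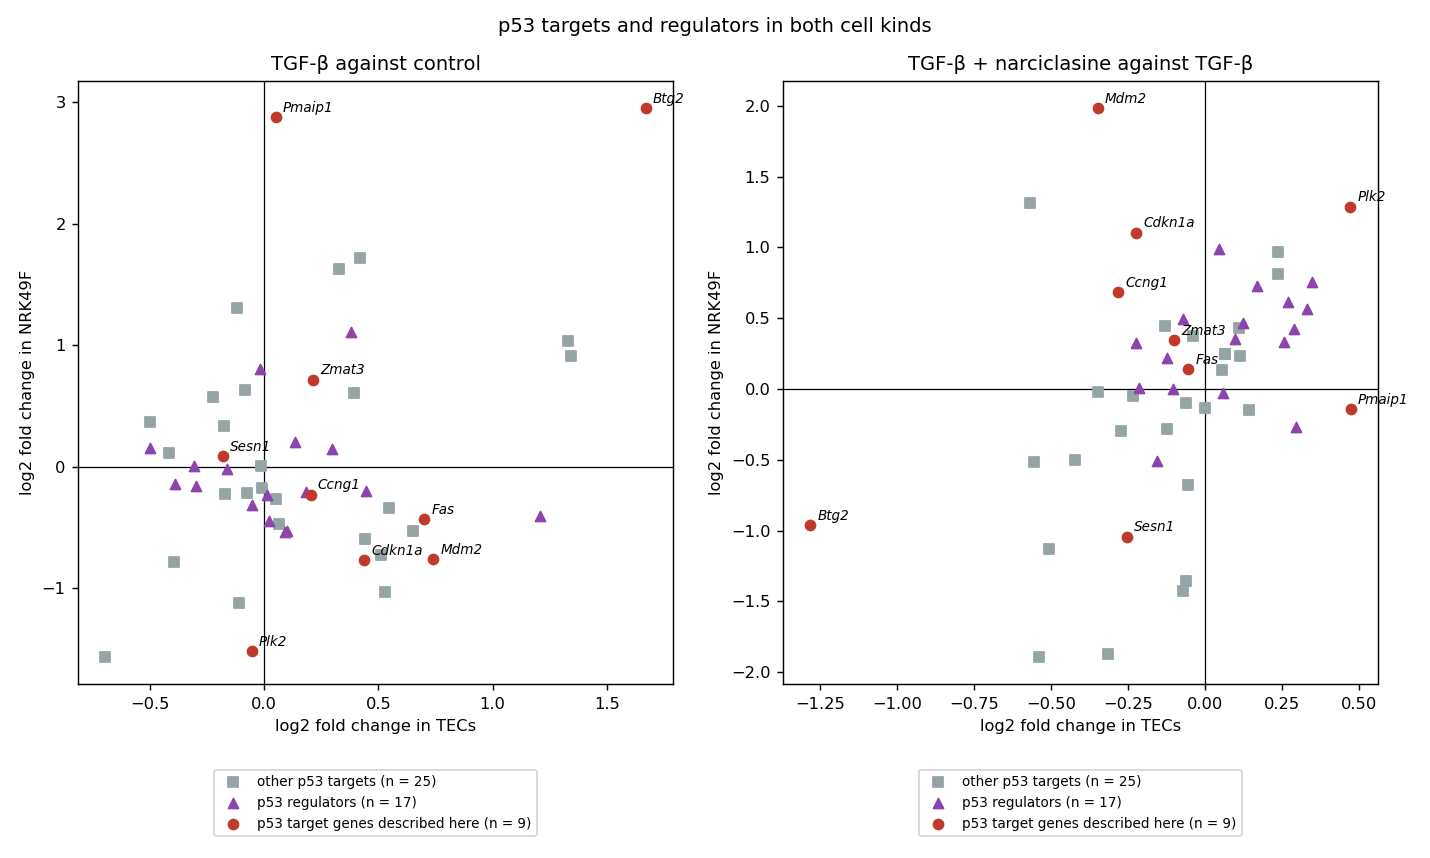
Log2 fold change in TECs (x) against that in NRK49F (y) under TGF-β against control (left) and for TGF-β with narciclasine against TGF-β (right). Each point is a gene tested in both cell kinds: 9 target genes (red circles), 25 other p53 targets (grey squares) and 17 regulators of p53 (purple triangles). Mdm2, Cdkn1a and Ccng1 lie lower right on the left panel and upper left on the right panel. So does Fas, whose changes with narciclasine were not called.

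Of 19 family relatives of the target genes, 9 of 18 tested rose and 6 fell under TGF-β1 in TECs, and 3 rose and 12 fell with narciclasine. In NRK49F 5 of 15 rose and 8 fell under TGF-β1, and 1 rose and 10 fell with narciclasine. The lists overlap, as Sesn2 and Tnfrsf10b also stand among the other p53 targets and Mdm4 among the regulators. The shares of all genes called were 69% under TGF-β1 and 52.3% with narciclasine in TECs, and 71.8% and 62.7% in NRK49F. In TECs the mitotic kinases Plk1 and Plk4, paralogs of Plk2, fell by 2.71 and 1.48 under TGF-β1 and rose by 1.65 and 0.66 with narciclasine. The BH3-only genes Bmf and Bcl2l11 rose by 2.66 and 1.42 under TGF-β1 and fell by 1.08 and 1.00 with narciclasine, in the direction of Bbc3. Cdkn1c, the paralog of Cdkn1a that encodes p57, was 2.83-fold above control with both agents, and Plk3 was below control by a log2 change of −0.98. In NRK49F, Ccng2 fell by 1.45 under TGF-β1 and by another 0.68 with narciclasine, where Ccng1 rose. Sesn2 rose by 1.72 under TGF-β1 and fell by 1.87 with narciclasine, and Sesn3 fell by 0.90 with narciclasine, as Sesn1 did. Plk4 and Plk3 rose by 1.76 and 1.49 under TGF-β1 in NRK49F, against the fall of Plk2. Btg3 was 1.31 above control with both agents and Bmf 1.88 below.

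Within the target genes, likeness over the 9 libraries of a cell kind is given as Pearson's r of log2 CPM, a description in which the libraries share their 3 treatments. Mdm2 and Cdkn1a were alike in both, with r = 0.969 in TECs and 0.936 in NRK49F. Mdm2 and Btg2 had r = 0.940 in TECs and −0.198 in NRK49F. Mdm2 and Ccng1 had r = 0.672 in TECs and 0.988 in NRK49F. Pmaip1 was most like Plk2 in TECs (r = 0.965) and Btg2 in NRK49F (r = 0.947). Other genes were ranked where tested, with a mean of 5 CPM or more and no clone-style symbol. Among these, the 3 most like Mdm2 were Mfap3l, Noct and Irgm1 in TECs (r = 0.996 to 0.998) and Dnajc11, Rrp7a and Mrm3 in NRK49F (0.996 to 0.998). Those most like Cdkn1a were Stard3, Cdc42se1 and Mafg in TECs (0.994 to 0.995) and Kdm5c, Uba3 and Srp68 in NRK49F (each 0.998).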

How the data were processed

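Polyadenylated RNA was enriched and sequenced on an Illumina machine, per the labels. The authors deposited raw counts per gene and library, 1 table per cell kind. Tools named in the submitters' processing notes are featureCounts, DESeq2 and HISAT2 2.1.0, with no step given for any, and mm10 is the one build named. For the rat values the build, and for both tables the strand setting, is not given in the sources used here. Earlier results of these data were known when the 10 genes and all gene lists were chosen.

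Each cell kind was fitted with edgeR 4.0.16 in R 4.3.3 over its 9 libraries (filterByExpr, TMM factors, quasi-likelihood test with robust dispersions), with 3 comparisons. Benjamini-Hochberg adjustment ran over every gene tested in a comparison, and a gene with an adjusted p under 0.05 was called. All adjusted p-values in the text are from this test unless DESeq2 is named. Levels are CPM with TMM-scaled totals, and RPKM with exon lengths of the GENCODE M21 annotation (GRCm38). The difference between cell kinds was an interaction over 18 libraries, so it need not equal the difference of the separate log2 changes. Likeness used log2 CPM with a prior count of 2. Named from the lists were Mdm4 and, per list and comparison, up to 4 called genes with the largest change, a mean of 5 CPM or more in whichever group was higher, and groups that did not overlap. Depth was 14695732 to 25192716 counts per library. The test was checked on simulated counts with few changed genes, the same dispersion for every gene and no outlying library. That check does not cover data with as many changes, or spread like that of NRK49F replicate 2. Alternatives were other scaling, other filters, DESeq2 1.42.0, fits of only the groups compared, a replicate block and leaving out libraries. Rat sequences and gene lengths were not used here. The result of 1 gene on the list of regulators is not reported here, and the counts of that list leave it out.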

Additional observations from a re-analysis of the deposited data

Results flagged for a closer look

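A total of 15 values drew attention because the same treatment moved a target gene differently in TECs and NRK49F, each by the interaction test in edgeR with an adjusted p under 0.05. Over all matched genes, 61.5% differed in the TGF-β1 effect and 46.9% in the narciclasine effect, and cell kind and species cannot be told apart. Differences are log2 changes in TECs minus those in NRK49F. For the TGF-β1 effect they were 1.47 for Mdm2, 1.17 for Cdkn1a, 1.10 for Fas, 0.40 for Ccng1 and 1.43 for Plk2. They were −2.86 for Pmaip1, −0.54 for Zmat3 and −1.31 for Btg2. For the narciclasine effect they were −2.27 for Mdm2, −1.26 for Cdkn1a, −0.90 for Ccng1, −0.38 for Zmat3 and −0.76 for Plk2, and 0.68 for Pmaip1 and 0.86 for Sesn1. Adjusted p-values ran from 1.52e-23 for Pmaip1 to 0.00355 for Zmat3.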

How the results depend on the processing

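The number of target genes called stayed within 1.5 times of its reported value in each comparison under all 17 alternatives for a cell kind and all 26 for the difference between them. In TECs it ran from 6 to 10 for TGF-β1, 7 to 8 for narciclasine over TGF-β1 and 7 to 9 for both agents over control, and in NRK49F from 8 to 8, 7 to 8 and 8 to 9. Of the target genes' values, 1396 kept direction and call, 32 lost the call and 4 gained it. Leaving out a library gave 5359 to 6227 and 7205 to 7664 genes called for the differences in the narciclasine and TGF-β1 effects. Values that changed sign were small: Pmaip1 under TGF-β1 in TECs −0.0804 (total counts), Bbc3 with both agents in TECs −0.172 to 0.0558 when libraries were left out (0.0558 without T+N replicate 2), Sesn1 under TGF-β1 in NRK49F −0.101 (total counts) and −0.0456 to 0.242 when libraries were left out (−0.0456 without control replicate 3), Mdm4 there −0.0426 (total counts), and the Fas difference in the narciclasine effect 0.0196 (without replicate 2 of all groups, against −0.13). The cause was not tested.

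A replicate block changed none of the 75 target gene calls, and the counts with the block were 8, 8 and 9 in TECs, 8, 8 and 9 in NRK49F, and 8 and 7 for the differences. Deviations of libraries that share a number had r from −0.102 to 0.166 in TECs and −0.0404 to 0.118 in NRK49F. For different numbers r ran from −0.134 to 0.139 and from −0.177 to 0.103. In both cell kinds TGF-β1 replicate 2 with T+N replicate 2 gave the highest value. Such weak values cannot settle whether the numbers pair the samples. Fas in TECs is limited by depth, at 14 to 41 counts per library.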
